A study of Mus musculus with 8 samples.

Results

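Wnt2, Wnt9b, Rspo3, Bmp2 and Bmp6, which encode Wnt and bone morphogenetic protein (BMP) signals known from liver endothelium, were followed together with the BMP target genes Id1, Id2, Id3, Smad6 and Smad7 in neonatal mouse liver. The 10 genes were chosen by name, through the Ensembl identifiers that GENCODE M21 (GRCm38) gives for them, out of 48440 genes in the count table. All 10 had enough reads to be tested, with 312 to 19647 counts per gene summed over the libraries. RNA sequencing was done on whole livers of 8 CD1 pups aged 3 to 8 days. The knockout group was 4 pups with a germline deletion of Myo5b (animals 275, 276, 277 and 278), which is not limited to 1 cell type. The control group was 4 littermates (animals 279, 280, 281 and 282) that were either heterozygous or wildtype, and the labels do not say which control had which genotype, nor the age, sex or litter of any pup. Reads of 4 Y-linked genes summed to 238, 237 and 233 CPM in knockout 277 and controls 279 and 281 and to at most 0.49 CPM in the other libraries, so the groups differ in their number of pups with Y-linked reads. Myo5b encodes myosin Vb, a motor that carries recycling endosomes along actin.

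In the liver, endothelial cells of the central vein and the neighbouring sinusoids secrete Wnt2 and Wnt9b, and the R-spondin Rspo3 protects Wnt receptors from removal, so that hepatocytes nearest the central vein receive the strongest beta-catenin signal. Sinusoidal endothelial cells also secrete BMP2 and BMP6, which act on hepatocyte receptors to phosphorylate SMAD proteins and switch on the iron hormone hepcidin. Id1, Id2 and Id3 encode inhibitors of helix-loop-helix transcription factors and are among the most direct BMP targets in many cell types, while SMAD6 and SMAD7 are induced by the pathway and inhibit it.

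The libraries held 14228268 to 18398039 counts. Myo5b itself read 43.1 to 59.5 CPM in knockout and 94.0 to 172 CPM in control livers, where CPM is the read count normalised to library size with TMM scaling (log2 fold change -1.43, SE 0.18, adjusted p = 3.14e-04), so reads from the gene remained in the knockouts. Adjusted p-values are from edgeR's quasi-likelihood test with Benjamini-Hochberg adjustment over all 18274 genes tested, and a gene was called at an adjusted p under 0.05. Hepatocyte markers summed to 89001 to 101548 CPM in knockout and 111190 to 140028 CPM in control livers, and no marker in the lists for endothelial, stellate, Kupffer or erythroid cells was at 0.

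Every one of the 10 genes had a higher mean in the knockout livers, and 7 were called higher: Wnt9b, Rspo3, Bmp2, Id1, Id2, Id3 and Smad7. Wnt2, Bmp6 and Smad6 did not pass the test. None was called lower by edgeR, DESeq2 or limma-voom, and no fold change was below 0. Over all genes tested, 20.7% were called, with 9.27% called higher and 11.4% called lower. The median log2 fold change of the 10 genes was 0.70, beside 0.0093 over all genes tested. In 8 of the 10 genes the 4 knockout values all lay above the 4 control values, beside 10.8% of all genes tested, and the groups did not overlap in either direction for 23.6%. The 10 genes were chosen with earlier results of these data known, so these counts do not test them as a set. Whole liver was sequenced, so more cells of a type and more RNA per cell cannot be told apart.

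**Figure D1:**
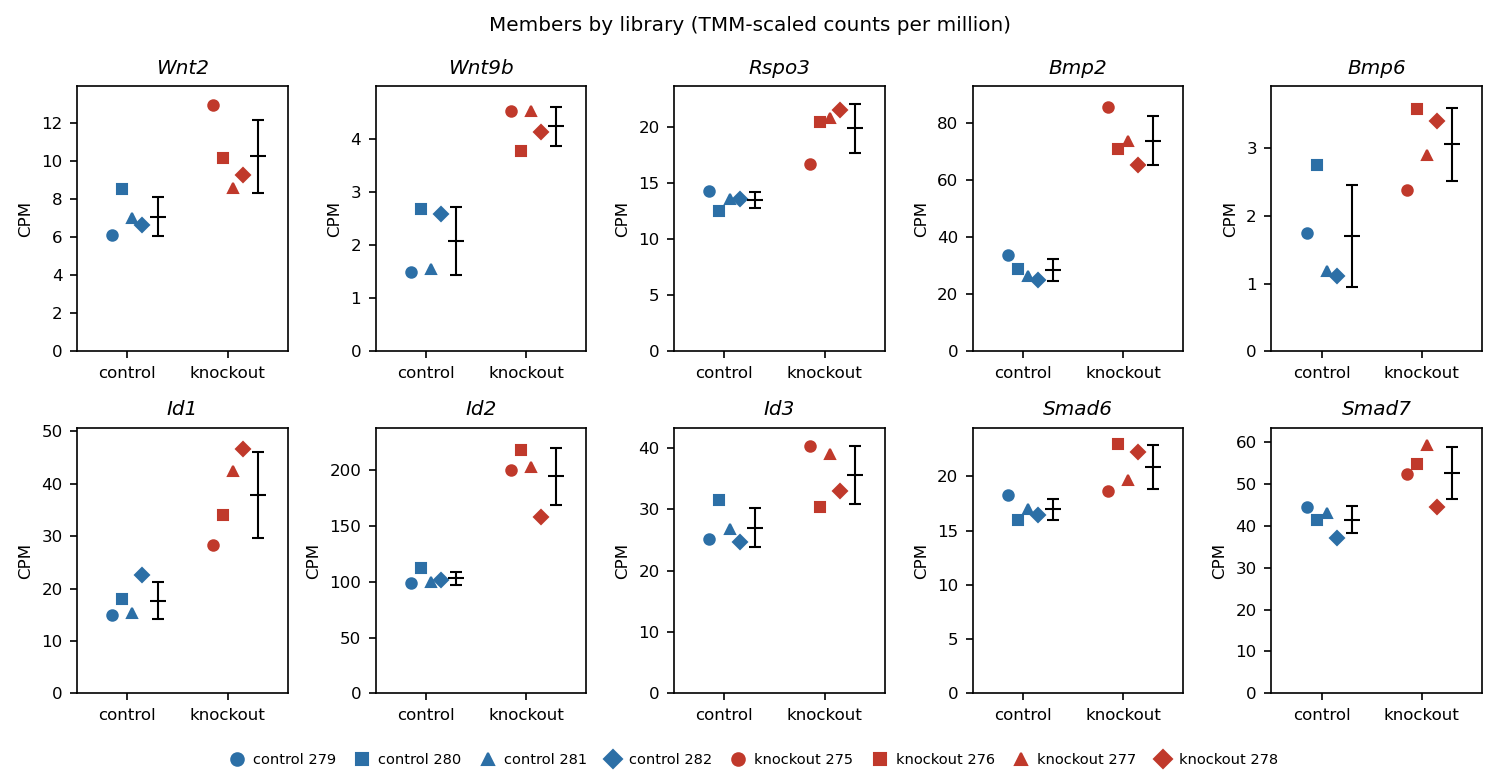
CPM of the 10 genes in each library (points, 1 panel per gene with its own axis from 0), with the mean and SD of each group of 4 beside them. Bmp2 sits at 65.3 to 85.7 CPM in the knockout livers and 25.1 to 33.7 CPM in the controls, while the groups overlap for Bmp6 and Id3.

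Bmp2, on chromosome 2 (133552159 to 133562885, plus strand), encodes a BMP ligand and showed the largest difference of the 10. It read 85.7, 71.0, 74.0 and 65.3 CPM in knockouts 275, 276, 277 and 278, and 33.7, 28.8, 26.5 and 25.1 CPM in controls 279, 280, 281 and 282. Every knockout was far above every control. The means were 74.0 ± 8.58 and 28.5 ± 3.76 CPM (SD, n = 4 each), a 2.59-fold rise (log2 fold change 1.37, SE 0.11, adjusted p = 7.25e-07).

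Bmp6, on chromosome 13 (38345107 to 38500302, plus strand), encodes the other main endothelial BMP and was far less abundant, with 16 to 56 reads per library. It read 2.38, 3.58, 2.90 and 3.40 CPM in the knockouts and 1.75, 2.75, 1.19 and 1.12 CPM in the controls, in the same animal order. Control 280 lay above knockout 275, so the groups overlapped. Its log2 fold change was 0.84 (SE 0.35, adjusted p = 0.104), and without control 280 it was 1.17 with an adjusted p of 0.0351. Bmp6 passed in no other of the 21 alternatives. Leaving out any 1 library gave log2 fold changes of 0.69 to 1.17, with adjusted p up to 0.225. Exons of Bmp6 share 224 bases with Txndc5 on the opposite strand, which had 27766 counts, and whether counting used the strand was not stated, which leaves the Bmp6 value uncertain. Txndc5 itself had a log2 fold change of -0.09 (SE 0.11, adjusted p = 0.650).

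Among the Wnt signals, Wnt9b, on chromosome 11 (103727364 to 103749821, minus strand), is a ligand of central vein endothelium. It read 4.52, 3.77, 4.53 and 4.13 CPM in the knockouts and 1.49, 2.68, 1.54 and 2.59 CPM in the controls. The controls fell into a lower and a higher pair, and every knockout lay above both. Wnt9b rose 2.04-fold (log2 fold change 1.03, SE 0.29, adjusted p = 0.0181), resting on 23 to 86 reads per library. The call was lost without control 279 (0.90, adjusted p = 0.0578) or control 281 (0.91, adjusted p = 0.0547), the pair with the lower values. These are also the controls with Y-linked reads, and with a Y-linked covariate Wnt9b was still called (0.99, SE 0.29, adjusted p = 0.0265).

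Rspo3, on chromosome 10 (29452416 to 29535867, minus strand), which potentiates Wnt signals at the receptor, read 16.7, 20.5, 20.8 and 21.5 CPM in the knockouts and 14.3, 12.5, 13.6 and 13.6 CPM in the controls. Knockout 275 was the nearest to the controls but above all of them. This 1.47-fold rise (log2 fold change 0.56, SE 0.13, adjusted p = 0.00624) was still called when any single library was left out. Exons of an antisense gene annotated at Rspo3 cover 404 of its exon bases, and that gene has no row in the table, so reads from both cannot be told apart if strand was not used.

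Wnt2, on chromosome 6 (17988940 to 18030585, minus strand), a ligand of sinusoidal and central vein endothelium, read 12.9, 10.2, 8.58 and 9.29 CPM in the knockouts and 6.10, 8.51, 7.01 and 6.66 CPM in the controls. All knockouts were above all controls, though knockout 277 and control 280 nearly met. With a log2 fold change of 0.53 (SE 0.19, adjusted p = 0.0543) it missed the threshold. Of 21 alternatives it passed in 4. These were without control 280 (0.63, adjusted p = 0.0407), in limma-voom (0.56, adjusted p = 0.0480), and with upper-quartile scaling (0.56, adjusted p = 0.0439) or library size alone (0.60, adjusted p = 0.0275). Among the 8 fits with 1 library left out, only that without control 280 passed. Log2 fold changes in those 8 fits ran from 0.40 to 0.63, with adjusted p up to 0.193.

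Id2, on chromosome 12 (25093799 to 25097140, minus strand), was the most abundant of the BMP target genes. It read 200, 218, 203 and 158 CPM in the knockouts and 98.5, 112, 99.98 and 102 CPM in the controls. The controls were tightly grouped and even knockout 278, the lowest knockout, stood well above them. Id2 rose 1.89-fold (log2 fold change 0.92, SE 0.10, adjusted p = 5.14e-06).

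Id1, on chromosome 2 (152736251 to 152737410, plus strand), read 28.4, 34.1, 42.5 and 46.6 CPM in the knockouts and 14.9, 18.0, 15.4 and 22.5 CPM in the controls. Every knockout exceeded every control, with knockout 275 the lowest of its group. Id1 rose 2.14-fold (log2 fold change 1.10, SE 0.17, adjusted p = 2.32e-04). The knockout with the most Id1, 278, had the least Bmp2, and the knockout with the least Id1, 275, had the most Bmp2. Of the other targets, Id2 was lowest in 278 and Id3 highest in 275, so the orders of the 4 knockouts differed between the target genes.

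Id3, on chromosome 4 (136143497 to 136145755, plus strand), read 40.3, 30.4, 39.0 and 33.0 CPM in the knockouts and 25.1, 31.6, 26.7 and 24.7 CPM in the controls. Control 280 lay above knockout 276, so the groups overlapped. The log2 fold change was 0.40 (SE 0.12, adjusted p = 0.0283). Its call was lost without knockout 275 (0.34, adjusted p = 0.0943), knockout 277 (0.35, adjusted p = 0.0924), control 279 (0.37, adjusted p = 0.0869), control 281 (0.39, adjusted p = 0.0618) or control 282 (0.36, adjusted p = 0.0801).

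The inhibitory SMAD genes moved least. Smad7, on chromosome 18 (75367529 to 75395935, plus strand), whose product targets activated receptors for removal, read 52.2, 54.6, 59.1 and 44.4 CPM in the knockouts and 44.4, 41.2, 42.9 and 37.0 CPM in the controls. Knockout 278 and control 279 were practically equal. The log2 fold change was 0.35 (SE 0.10, adjusted p = 0.0264), and the call was lost without knockouts 275 (0.35, adjusted p = 0.0539), 276 (0.32, adjusted p = 0.0755) or 277 (0.28, adjusted p = 0.105) or controls 280 (0.34, adjusted p = 0.0597) or 282 (0.29, adjusted p = 0.0866).

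Smad6, on chromosome 9 (63953076 to 64022059, minus strand), which competes with receptor-activated SMADs of the BMP branch, read 18.6, 22.9, 19.7 and 22.2 CPM in the knockouts and 18.3, 16.0, 16.98 and 16.5 CPM in the controls. Knockout 275 and control 279 differed little, though the groups did not overlap. The log2 fold change was 0.30 (SE 0.13, adjusted p = 0.106), and it passed in no alternative that was run.

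Levels of different genes were compared as CPM per kilobase of annotated exon. In control livers the order was Id2 (42.3 ± 2.50), Id1 (15.3 ± 3.00), Id3 (15.1 ± 1.76), Smad7 (9.15 ± 0.70), Bmp2 (8.02 ± 1.06), Smad6 (5.29 ± 0.31), Rspo3 (4.37 ± 0.24), Wnt2 (3.14 ± 0.46), Wnt9b (0.46 ± 0.14) and Bmp6 (0.44 ± 0.19; SD, n = 4). The control ranges overlapped between Id1 and Id3, between Smad7 and Bmp2, and between Wnt9b and Bmp6, and no other neighbours overlapped. In knockout livers Bmp2 stood directly after Id1, at 20.8 ± 2.41, overlapping with Id3 at 19.9 ± 2.64 and above every Smad7 value (9.81 to 13.1). Per kilobase, Bmp2 was the most abundant of the 5 ligand genes in both groups.

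Other BMP target genes, from a list beside the 10, included further rises. Of 9 such genes 6 were tested, 3 were called higher and none lower in edgeR, DESeq2 or limma-voom, and none was lower at an unadjusted p under 0.05. Their median log2 fold change was 0.76. Over all genes tested 9.27% were called higher and 11.4% lower, with a median of 0.0093. The list was drawn up with earlier results of these data known. Atoh8, a transcription factor gene induced by BMP signals in hepatocytes, read 7.13, 11.6, 14.0 and 11.8 CPM in the knockouts and 4.16, 4.16, 2.26 and 3.58 CPM in the controls (log2 fold change 1.65, SE 0.25, adjusted p = 1.41e-04). Every knockout was above every control, as was the case for Smad9, the gene of a BMP receptor-regulated SMAD. Smad9 read 19.8, 17.8, 32.6 and 15.2 CPM in the knockouts and 7.79, 11.7, 11.2 and 11.9 CPM in the controls (log2 fold change 1.01, SE 0.23, adjusted p = 0.00606).

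Hamp, the hepcidin gene and the best known hepatocyte target of endothelial BMP2 and BMP6, read 71.6, 70.2, 153 and 217 CPM in the knockouts and 37.3, 33.4, 56.8 and 26.4 CPM in the controls. The groups did not overlap, but the knockouts were widely spread, with 277 and 278 far above 275 and 276. The log2 fold change was 1.73 (SE 0.48, adjusted p = 0.0496), at the edge of the threshold. Leaving out any 1 library ended the call, with adjusted p from 0.0504 to 0.125 and log2 fold changes from 1.35 (without knockout 278) to 1.98 (without control 281), except for knockout 276. The call was also lost without the low-count filter (1.73, adjusted p = 0.0870) and with the Y-linked covariate (1.89, adjusted p = 0.0533). Of 21 alternatives Hamp passed in 8. The neighbouring paralog Hamp2 is nearly identical, so reads may be split between the genes, and it had a log2 fold change of 1.71 (SE 0.41, adjusted p = 0.0297).

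**Figure D2:**
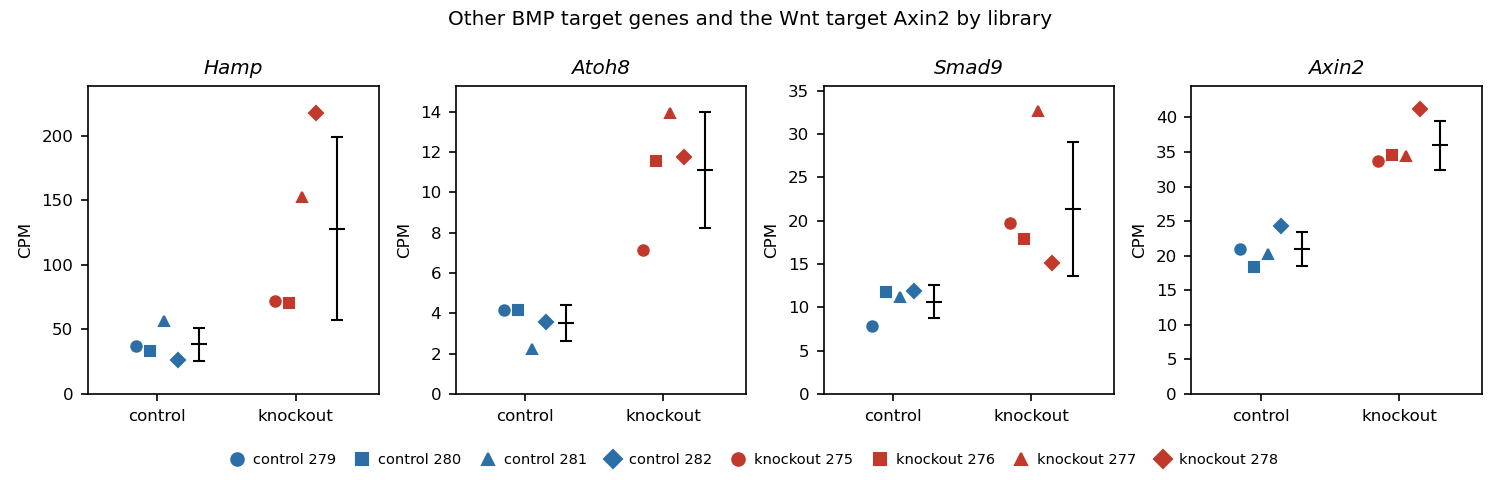
CPM in each library of the BMP target genes Hamp, Atoh8 and Smad9 and of the Wnt target Axin2 (points), with the mean and SD of each group of 4. All 4 knockout values lie above all 4 control values in each panel, and Hamp is highest in knockout 278 (217 CPM). The genes shown are all among those called higher, Hamp at the edge of the threshold, so the panels do not describe their lists. Tested genes of the lists that were not called (such as Id4, Bambi, Hey1, Lgr5 and Glul) or fell (Cyp1a2) are not shown.

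Stretches upstream of 5 BMP target genes are shown because the genes differ in whether they hold GGCGCC, the core of the GC-rich BMP response element known from Hamp and Id promoters. They come from RefSeq on GRCm38.p6, end at or before the start site that RefSeq gives, leave out bases that GENCODE M21 annotates as exon, and have the matches in capitals. Hamp is shown from chr7:30944033-30944279 (minus strand), Smad9 from chr3:54755332-54755581 (plus strand), Id2 from chr12:25096254-25096342 (minus strand), Smad6 from chr9:64022060-64022309 (minus strand) and Atoh8 from chr6:72235578-72235827 (minus strand). The RefSeq start of Id2 is at 25096092, downstream of the GENCODE start at 25097140, so its stretch lies in an intron of the longer GENCODE transcript. The second stretch in capitals for Hamp is TTCTTGGAA, a sequence known as a STAT3 site, which links the same promoter to inflammation.
Hamp: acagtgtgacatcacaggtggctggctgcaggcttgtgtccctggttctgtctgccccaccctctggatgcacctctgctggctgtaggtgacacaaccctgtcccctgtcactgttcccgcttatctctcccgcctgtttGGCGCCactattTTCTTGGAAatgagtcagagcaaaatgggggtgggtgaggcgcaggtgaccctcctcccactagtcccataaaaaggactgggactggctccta
Smad9: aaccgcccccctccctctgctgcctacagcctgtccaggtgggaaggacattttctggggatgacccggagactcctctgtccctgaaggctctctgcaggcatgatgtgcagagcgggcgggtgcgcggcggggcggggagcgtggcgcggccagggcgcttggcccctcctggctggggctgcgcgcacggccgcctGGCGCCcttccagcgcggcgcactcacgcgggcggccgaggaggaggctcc
Id2: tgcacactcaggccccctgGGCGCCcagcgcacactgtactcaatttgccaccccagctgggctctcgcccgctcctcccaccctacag
Smad6: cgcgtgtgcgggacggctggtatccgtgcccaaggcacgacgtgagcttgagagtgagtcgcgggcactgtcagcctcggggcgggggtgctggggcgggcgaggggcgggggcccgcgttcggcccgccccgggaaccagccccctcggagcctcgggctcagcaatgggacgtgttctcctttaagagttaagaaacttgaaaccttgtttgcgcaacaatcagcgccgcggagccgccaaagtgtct
Atoh8: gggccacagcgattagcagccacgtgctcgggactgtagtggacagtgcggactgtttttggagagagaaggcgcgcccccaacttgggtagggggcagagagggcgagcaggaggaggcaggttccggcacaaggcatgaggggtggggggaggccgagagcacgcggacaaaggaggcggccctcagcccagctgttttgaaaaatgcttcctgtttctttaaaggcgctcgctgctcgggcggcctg
The match to GGCGCC began 109 bases upstream of the RefSeq start in Hamp, 51 in Smad9 and 231 in Id2, and Smad6 and Atoh8 had none in 250 bases. Genes with and without a match were found on both sides of the threshold: Atoh8 and Id3 were called higher and held none, while Id4, which held 1, was not called (log2 fold change 0.52, SE 0.31, adjusted p = 0.272). Of the 14 BMP target genes in both lists 9 had an entry, and 4 of these (Hamp, Smad9, Id2 and Id4) held GGCGCC, which reads the same on both strands. Over all 32851 promoters of that length, 9.59% held it. Because the element is known from Hamp and Id promoters, these shares are no test of enrichment. No background of promoters with like GC content was computed. Of the 10 genes 6 had an entry, and Wnt2 and Id2 held it. GTCTAGAC, also the same on both strands and held by 0.167% of promoters, and CTTTGAT or ATCAAAG (the same motif on each strand), held by 3.21% and known as a TCF site, were in none of the 6. TTCTTGGAA or, on the other strand, TTCCAAGAA was held by 0.365% of promoters. The 2 matches in Hamp do not overlap. A match describes the letters only, and no binding was measured.

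Most other components of the BMP pathway were not called, and neither were most of all genes tested. Over all genes 9.27% were called higher and 11.4% lower. Of 12 other BMP and GDF ligand genes 8 were tested and 1 was called higher. That was Gdf2, the gene of BMP9, a ligand made by stellate cells, at 45.7 ± 6.40 CPM in knockout and 35.6 ± 5.34 CPM in control livers (log2 fold change 0.36, SE 0.12, adjusted p = 0.0468), a call lost without knockout 275, 276 or 277 or control 279, 281 or 282 (0.25 to 0.39). Without knockout 278 the count was 2. Of 15 receptor and co-receptor genes 14 were tested, 2 were called higher and 2 lower, with a median log2 fold change of 0.06. Eng, an endothelial co-receptor of BMP9, was among the higher (0.30, SE 0.09, adjusted p = 0.0334), a call lost without knockout 275, 277 or 278 or control 279, 281 or 282 (0.23 to 0.32). The other was Acvrl1, a BMP9 receptor of endothelium (0.46, SE 0.16, adjusted p = 0.0430), and the higher count was 0 without knockout 275 or 277 or control 279 or 281 and 1 without any other library. Tmprss6, a hepatocyte protease that cleaves the BMP co-receptor hemojuvelin and thereby restrains hepcidin, had 304 ± 21.1 CPM in control and 199.9 ± 19.6 CPM in knockout livers, a fall (log2 fold change -0.61, SE 0.09, adjusted p = 1.08e-04). It read 179 to 222 CPM in the knockouts and 289 to 334 CPM in the controls, with no overlap. Neo1, the gene of the hemojuvelin-binding receptor neogenin, fell too (-0.50, SE 0.11, adjusted p = 0.00373).

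Of 10 SMAD and SMAD regulator genes 2 were called higher and none lower in edgeR, DESeq2 or limma-voom, with a median of 0.08 and none lower at an unadjusted p under 0.05. The higher ones were Smad9 and Smurf1, a ubiquitin ligase that acts on SMADs (0.33, SE 0.11, adjusted p = 0.0437), and the count was 1 without knockout 276 or 277 or any single control. Smad9 is also in the list of other BMP target genes, so its rise is counted in both lists. Of 11 BMP antagonist genes 7 were tested and none was called by edgeR, though 2 were higher at an unadjusted p under 0.05 and DESeq2 and limma-voom each called 1. Bambi is in this list and in that of other BMP target genes. Fst, which encodes follistatin, a binder of activins and some BMPs, read 59.2 CPM on average in knockout and 29.8 CPM in control livers (0.99, SE 0.38, adjusted p = 0.128).

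Genes of the Wnt pathway outside the 10 did not move in a common direction. The counts of calls below stand beside 9.27% called higher and 11.4% called lower over all genes tested. Of 20 other Wnt and R-spondin ligand genes only 5 had enough reads to be tested, and edgeR, DESeq2 and limma-voom called none (1 higher in edgeR without the low-count filter). In edgeR 1 of the 5 was higher at an unadjusted p under 0.05. Of 22 genes of Wnt secretion and reception 20 were tested, with 2 called higher and 5 lower and a median of -0.11. Lrp5, a Wnt co-receptor, had 266 ± 15.1 CPM in control and 404 ± 17.8 CPM in knockout livers, a rise (log2 fold change 0.61, SE 0.08, adjusted p = 3.84e-05), and its partner Lrp6 rose by 0.30 (SE 0.08). Ror1, a receptor of non-canonical Wnt signals, had 7.37 ± 1.28 CPM in control and 3.46 ± 0.52 CPM in knockout livers, a fall (log2 fold change -1.09, SE 0.22, adjusted p = 0.00216). The Frizzled receptor genes Fzd8 (-0.72), Fzd7 (-0.58) and Fzd1 (-0.47) and the R-spondin receptor gene Lgr4 (-0.41) fell as well. The lower count was 3 without knockout 275 or control 282 and 2 without control 280, and the higher count was 1 without knockout 275 or 277 or control 281.

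Of 15 Wnt inhibitor genes 8 were tested and none was called by edgeR, DESeq2 or limma-voom (1 higher at an unadjusted p under 0.05 in edgeR, and 1 called without control 282). Of 16 genes of the beta-catenin pathway inside the cell 3 were called higher and 1 lower, with a median of 0.08. Dvl2, which relays the signal from Frizzled receptors, rose by 0.78 (SE 0.18, adjusted p = 0.00492), and the others were Tcf7l2, a transcription factor of the pathway (0.34, SE 0.09), and Apc, part of the complex that removes beta-catenin (0.24, SE 0.08). Csnk1a1, a kinase that primes beta-catenin for removal, was lower by edgeR (-0.22, SE 0.08, adjusted p = 0.0479), a call lost under each other scaling and without any single library except knockout 278 or control 282.

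Wnt target genes of hepatocytes likewise did not move together. Of 15 such genes 2 were called higher and 1 lower, with a median log2 fold change of 0.13. Lgr5, Rnf43, Znrf3 and Notum, none of them called, are also in the lists of Wnt receptors or inhibitors. Calls in this list were about as frequent as over all genes tested, of which 20.7% were called. Axin2, a feedback inhibitor that beta-catenin switches on in most tissues, read 33.7, 34.6, 34.4 and 41.3 CPM in the knockouts and 20.9, 18.3, 20.2 and 24.3 CPM in the controls (0.78, SE 0.12, adjusted p = 1.82e-04). Its groups did not overlap. Tbx3, a transcription factor gene, rose by 0.74 (SE 0.13). Lgr5, the R-spondin receptor gene of pericentral hepatocytes, averaged 8.40 ± 0.60 and 8.95 ± 1.76 CPM (-0.09, SE 0.19, adjusted p = 0.787), and Glul, the glutamine synthetase gene, 187 ± 47.4 and 247 ± 16.9 CPM (-0.40, SE 0.15, adjusted p = 0.0825). Glul was called lower without knockout 278 (-0.57, adjusted p = 3.69e-04), without the low-count filter (-0.40), in DESeq2 (-0.39) and in limma-voom (-0.47). Cyp1a2, a pericentral cytochrome P450, fell (-2.16, SE 0.43, adjusted p = 0.0149), a call lost without knockout 276 (-2.06, adjusted p = 0.0503). The number of targets called lower was 3 without knockout 278, without the filter and in limma-voom, and 2 in DESeq2.

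Many sinusoidal and some pan-endothelial markers were called higher in the same livers. Over all genes tested 9.27% were called higher and 11.4% lower. Of 17 pan-endothelial markers 6 were called higher (median 0.29) and their summed level was 1149 to 1364 CPM in knockouts and 938 to 986 CPM in controls. The count was 3 without knockout 275 or 277 or control 279, and 10 with library size alone. Of 12 sinusoidal markers 8 were called higher (median 0.44), summing to 1493 to 1713 and 1128 to 1256 CPM. Clec4g, a sinusoidal lectin, rose most clearly (1.13, SE 0.11, adjusted p = 3.05e-06), and Ptprb, an endothelial phosphatase, by 0.67 (SE 0.08, adjusted p = 1.56e-05). Among markers not called, sinusoidal Gata4 (-0.09) and pan-endothelial Flt1 (-0.0083) and Sox18 (-0.09) were slightly below 0. Of 10 markers of central vein and large vessel endothelium only Thbd, the thrombomodulin gene, was called higher (0.91, SE 0.21, adjusted p = 0.00423; median 0.08), and their sums overlapped, at 159 to 183 and 137 to 177 CPM. The count was 2 without control 280, in limma-voom, without the low-count filter and with library size alone.

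Each gene was therefore also given relative to the mean log2 CPM of the 17 pan-endothelial markers in the same library, as a description with no test. On that scale the knockout livers had 0.93 ± 0.17 for Bmp2, and the controls had -0.16 ± 0.19 (SD, n = 4 each), 1.10 apart. Wnt9b differed by 0.75, Id1 by 0.81 and Id2 by 0.63, and for these 4 genes all knockouts stayed above all controls, narrowly so for Id1. The differences of Wnt2 (0.24), Rspo3 (0.27), Bmp6 (0.59), Id3 (0.12), Smad6 (0.02) and Smad7 (0.06) came with overlapping groups. Relative to the sinusoidal markers the groups of Bmp2 (0.94), Wnt9b (0.60) and Id2 (0.48) did not overlap, whereas those of Id1 (0.66) did, and Id3 (-0.03), Smad6 (-0.13) and Smad7 (-0.09) were slightly lower in the knockouts. On the pan-endothelial scale the number of genes whose groups did not overlap was 6 without control 280 and 5 without knockout 275. The share of all genes tested whose groups stay apart on these scales was not computed, so these counts have no background.

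**Figure D3:**
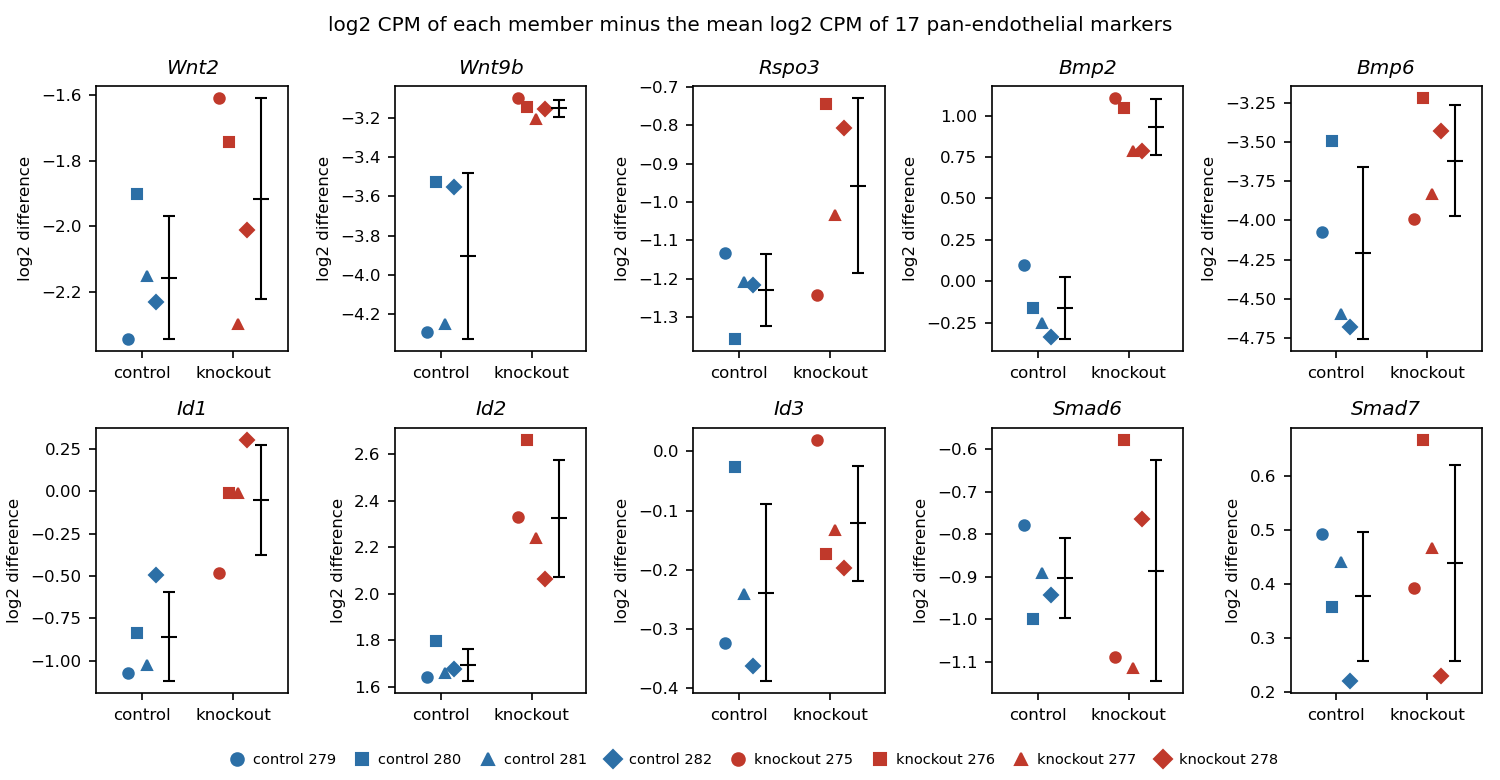
log2 CPM of each gene minus the mean log2 CPM of 17 pan-endothelial markers in the same library (points; each panel has its own axis, which does not start at 0), with the mean and SD of each group of 4. Knockout points lie above all control points for Wnt9b, Bmp2, Id1 and Id2 and overlap with them for the other genes.

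In the fit across all genes with that marker mean as a covariate, Bmp2 (log2 fold change 1.26, SE 0.21, adjusted p = 0.00701) and Id2 (0.95, SE 0.18, adjusted p = 0.0135) were called. The other 8 genes were not, and all 10 fold changes stayed above 0. Id1 was 0.94 (SE 0.33, adjusted p = 0.157), Wnt9b 0.71 (SE 0.56, adjusted p = 0.579), Rspo3 0.63 (SE 0.26, adjusted p = 0.236) and Id3 0.0069 (SE 0.22, adjusted p = 0.992). Of the 6 other BMP target genes tested none was called in this edgeR fit (1 higher at an unadjusted p under 0.05), with Atoh8 at 1.53 (SE 0.44, adjusted p = 0.0828), Hamp at 1.17 (adjusted p = 0.646) and Smad9 at 0.18 (SE 0.33, adjusted p = 0.846). The covariate differs between the genotypes (variance inflation factor 3.90), and the median SE of the 10 genes went from 0.13 to 0.25.

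Other cell type markers also moved with the genotype. The counts of calls below stand beside 9.27% called higher and 11.4% called lower over all genes tested. All 20 erythroid markers were called lower (median -1.91), summing to 2264 to 4671 CPM in knockouts and 9238 to 12210 CPM in controls, with Gata1 at -1.92 (SE 0.25). With their mean as a covariate none of the 10 genes was called by edgeR, 3 had an unadjusted p under 0.05, and Wnt2 (-0.0035), Id3 (-0.22) and Smad7 (-0.17) turned below 0. Bmp2 was 0.97 (SE 0.31, adjusted p = 0.314) and Id1 1.76 (SE 0.42, adjusted p = 0.126) in that fit, where the variance inflation factor was 8.82. Of 12 Kupffer cell and macrophage markers 11 were called higher (median 0.77), summing to 1647 to 1917 and 923 to 1060 CPM, with Mpeg1 at 1.17 (SE 0.10). Of 15 stellate cell and fibroblast markers 5 were called higher and 2 lower (median 0.07; the lower count was 1 without knockout 275, 276 or 277 or control 279 or 280), and Hgf, a hepatocyte mitogen of stellate cells, rose by 0.60 (SE 0.09). The other higher ones were Hand2 (0.69), Dcn (0.58), Pdgfra (0.53) and Lrat (0.49), and the collagen genes Col3a1 (-0.53) and Col1a1 (-0.46) were the lower ones. Of 12 hepatocyte markers 1 was called higher, Ahsg (0.37), and 3 lower, Alb (-1.08), Ttr (-0.97) and Cps1 (-0.78). The part of these cell types in the values of the 10 genes was not tested. The endothelial and erythroid covariates differ between the genotypes, so these fits cannot separate cell type from genotype. No fit used the Kupffer, stellate or hepatocyte markers.

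**Figure D4:**
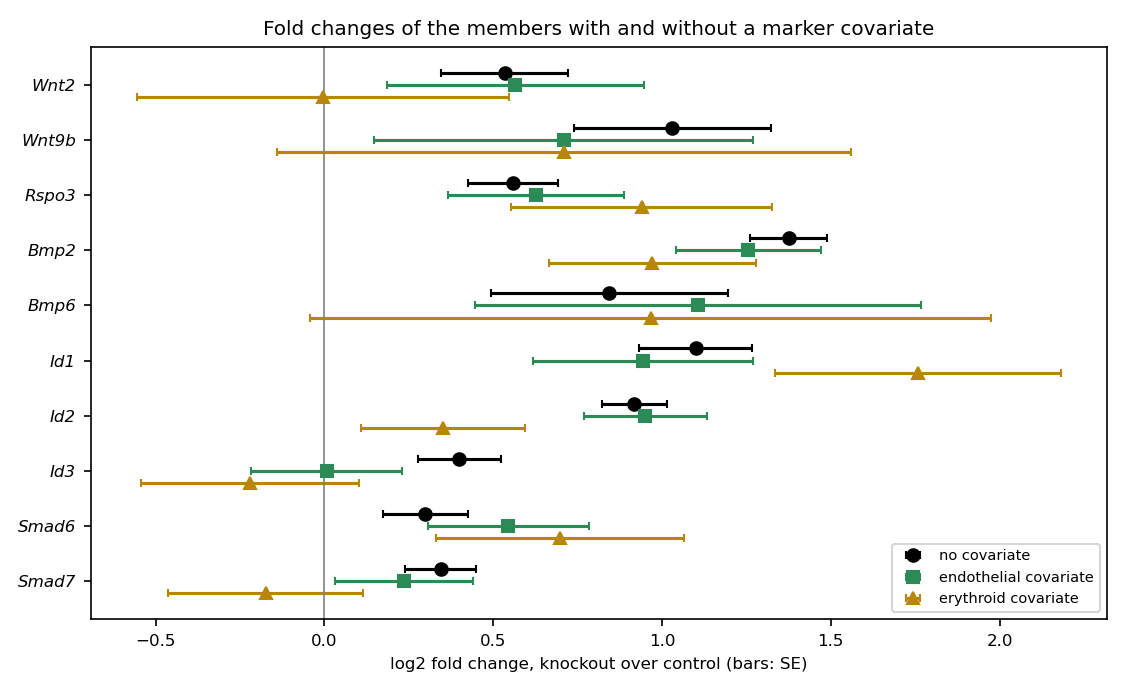
log2 fold change of each gene, knockout over control, with no covariate (circles), with the pan-endothelial marker mean as a covariate (squares) and with the erythroid marker mean (triangles). Bars are SE, and 4 libraries per group enter each fit. Bmp2 is at 1.37, 1.26 and 0.97 in the 3 fits and is not called with the erythroid covariate. Id3 goes from 0.40 to 0.0069 and -0.22, and Id1 from 1.10 to 0.94 and 1.76.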

How the data were processed

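The deposited values are whole-number read counts per Ensembl gene. The authors aligned reads with Rsubread 2.20.0 in R 4.4.1, per the labels' protocols, and featureCounts made the counts according to the submitters' processing notes. The name GRMm38 given for the build was read as GRCm38. Annotation, strand setting and handling of multiply mapped reads were not given in the sources used here. Of 48440 genes, 48058 matched GENCODE M21, which gave symbols, coordinates and exon lengths.

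The test was run in R 4.3.3 with edgeR 4.0.16 and limma 3.58.1: filterByExpr (minimum count 10, total 15), TMM, robust quasi-likelihood F-test for genotype over all 8 libraries, no covariate, Benjamini-Hochberg adjustment, threshold 0.05. SE is the log2 fold change divided by the square root of F. log2 CPM used a prior count of 2. Libraries of a group differed by 11.9 to 21.8 chi-square per degree of freedom, so none was counted as a repeat of another. The labels number each library as its own pup. In 3 simulated runs of the comparison, the last on 17841 genes, with 200 changed genes each, recovery was 25.1% at 1.5-fold, 58.7% at 2-fold and 86.2% at 4-fold, and 7.98% of calls were false. Alternatives were other scalings, filters and dispersions, DESeq2 1.42.0, limma-voom, a minimum fold of 1.5, marker covariates (endothelial, erythroid, Y-linked) and omission of libraries.

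The 10 genes and all lists were chosen with earlier results of these data known. Named beside them are Myo5b, Hamp, Axin2, Lgr5, Glul, the gene with the smallest p in each called direction of each pathway list, the gene with the smallest p of the endothelial, stellate, erythroid and Kupffer lists, and the 2 genes of at least 1 CPM with the pattern most like each of the 10. Hamp2, Txndc5, Fst and the remaining genes of short lists of calls were named after values were seen. Figures used matplotlib 3.10.9.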

Additional observations from a re-analysis of the deposited data

Results flagged for a closer look

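In 62 groups of 4 libraries (the named genes in each genotype), 3 had a library far from the other members of its group, and chance alone gives about 1 in 20. Axin2 was 41.3 CPM in knockout 278, with the other knockouts at 33.7 to 34.6 CPM. Cyp1a2 was 64.0 CPM in the same liver, with the others at 19.8 to 25.8 CPM. Mpeg1 was 94.9 CPM in control 281, with the other controls at 71.6 to 74.6 CPM. None of the 10 ligand and BMP target genes was among them.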

How the results depend on the processing

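Of the 10 genes, 7 or 8 were called higher under each other scaling, low-count filter, dispersion and test and with Y-linked genes as a covariate, 5 to 8 without any single library, and 6 without knockout 278 and control 282 together. With a minimum fold of 1.5 the number was 3, with the endothelial covariate 2 and with the erythroid covariate 0; the wider errors of the covariate fits follow from their overlap with genotype. Over all genes tested, 717 were called with the minimum fold (217 higher, 500 lower), 477 with the endothelial covariate (216 and 261) and 43 with the erythroid covariate (23 and 20), beside 3782. With library size alone, all genes called higher numbered 2300 and all genes called lower 1696, beside 1694 and 2088. With the erythroid covariate the sign turned for Wnt2 (-0.0035), Id3 (-0.22), Smad7 (-0.17), Lgr5 (0.14), Glul (0.46), Gdf2 (-0.21), Smad9 (-0.41) and Thbd (-0.45). With the endothelial covariate it turned for Lgr5 (0.017) and Eng (-0.0052), and without knockout 278 and control 282 for Lgr5 (0.0037). The cause was not tested. Few reads limit Bmp6 and Wnt9b. No paired analysis was possible because the groups share no replicate numbers.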

Other observations

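For each of the 10 genes, the genes with the most similar pattern were found by the mean absolute difference of log2 CPM, centred on each gene's mean, over the 8 libraries. Nearest to Bmp2 were Igfbp2 (0.13), which encodes a binding protein of insulin-like growth factors and read 5602 CPM in knockout and 2573 CPM in control livers, and Tnfaip3 (0.13), an inhibitor of NF-kappaB signals. Nearest to Id2 were Ifngr1, the interferon gamma receptor gene (0.055), and Uggt2 (0.056), and nearest to Id1 were Ltb (0.12) and Ctsw (0.13), both known from lymphocytes. Id3 was nearest to Rasip1 (0.058), a gene of endothelial cells, and Cyyr1 (0.068). Smad6 was nearest to Cyb5d1 (0.040) and Grk2 (0.044), and Smad7 to Traf3 (0.051) and Epb41l2 (0.054).

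Among the Wnt signals, Rspo3 was nearest to Abr (0.062) and Micall1 (0.063), and Wnt2 to Gja1 (0.062), the connexin 43 gene, and Cyp2c37 (0.069), a member of a cytochrome P450 family with near-identical copies. Wnt9b was nearest to Nlrc4 (0.12) and Dysf (0.14), and Bmp6 to Gpr137b-ps (0.16) and Ly6d (0.19). Both low-count genes had more distant neighbours than Wnt2, Rspo3, Id2, Id3, Smad6 and Smad7. The nearest genes to Bmp2 (0.13) and Id1 (0.12), which have more reads, were about as distant as that to Wnt9b (0.12). These distances describe 8 libraries of 2 genotypes.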
